A study of Mus musculus with 4 samples.

Results

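The Lyz1+Retnla+ macrophages of the mouse aortic arch were taken as the cells rich in the transcripts of lysozyme 1 (Lyz1) and resistin-like alpha (Retnla, also called RELMalpha or Fizz1). They numbered 139 of 14148 kept cells. A cell was a member with at least 10 UMIs (unique molecular identifiers, which mark each captured mRNA so that it is counted once) of Lyz1, at least 20 of Retnla, at least 3 of Fn1 and Ear2 together and at least 1 of Ptprc, which encodes the leukocyte antigen CD45. It also had at most 1 UMI of Lyve1, at most 2 of Myh11 and none of Pdgfra, the markers of resident macrophages, smooth muscle cells and fibroblasts. The members were thus selected on measured UMI counts of these genes, and every difference between them and other cells is a description with no test.

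Aortic arches with their branches were pooled within each group, dissociated with the tissue around the vessel, sorted for DAPI-negative viable cells and sequenced as 1 single-cell library per group. All mice were males that carried floxed Nfe2l2 alleles (Nfe2l2tm1.1Sred), and Nfe2l2 encodes the oxidative stress factor Nrf2. The groups labelled Nrf2Cdh5tKO also carried Cre recombinase under the endothelial Cdh5 promoter, which is active in part of the blood lineage too, and Cre removes exon 5. The normocholesterolemic Nrf2Cdh5Lox and Nrf2Cdh5tKO pools held 4 mice each, given a standard diet. The atherosclerotic Nrf2Cdh5Lox and Nrf2Cdh5tKO pools held 3 mice each, given an atherogenic treatment that included a high-fat diet for 21 weeks. Treatment began at 3 months of age. The libraries held 98754487, 43717402, 12276546 and 24184211 UMIs in the order normocholesterolemic Nrf2Cdh5Lox, normocholesterolemic Nrf2Cdh5tKO, atherosclerotic Nrf2Cdh5Lox and atherosclerotic Nrf2Cdh5tKO. Values for the 4 libraries are given in this order below. With 1 library per group there was no replicate, so no p-value was computed. Intervals are exact at 95% and cover counting error only, and what belongs to a group cannot be told apart from what belongs to its pool of mice or its library.

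Nfe2l2 was read first, as a check of the labels. Endothelial cells were taken as cells with UMIs of both Pecam1 and Cdh5 and none of Ptprc. In them Nfe2l2 had 159 (126 to 198), 301 (250.0 to 360.0), 172 (114 to 248) and 346 (274 to 430.4) UMIs per 1000000 UMIs (CPM). The level was higher, not lower, in both libraries labelled Nrf2Cdh5tKO. The counts are given per gene, with no position along it, and come from 3′ chemistry. Whether their reads fall in the exon that Cre removes was not settled. The counts thus do not check the deletion, and the libraries are called by their label throughout. In the Lyz1+Retnla+ cells Nfe2l2 stood at 410.3 (383 to 439.6), 572 (452 to 714), 371 (290.1 to 469) and 349 (293 to 413) CPM, again with no lower level in both libraries labelled Nrf2Cdh5tKO.

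Serous cavities such as the peritoneum and pleura hold a pair of macrophage types. Large cavity macrophages are long-lived, depend on the transcription factor GATA6 and carry receptors such as Timd4. Small cavity macrophages come from blood monocytes through CCR2, use IRF4, carry CD226, present antigen on MHC class II and often express RELMalpha, a protein that macrophages secrete under interleukin-4 and STAT6 signalling. Lysozyme 1 and lysozyme 2 are enzymes that cut bacterial cell walls. In the mouse Lyz2 is expressed by most myeloid cells, whereas Lyz1 is best known from the Paneth cells of the gut.

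Lyz1 and Retnla gave the cells their name, and Lyz2 is the neighbour and close copy of Lyz1. Lyz1 (ENSMUSG00000069515) is a protein-coding gene on chromosome 10 at 117287797 to 117292868 on the minus strand of GRCm38, next to Lyz2 (ENSMUSG00000069516) at 117277331 to 117282321. Retnla (ENSMUSG00000061100) is on chromosome 16 at 48842551 to 48844461 on the plus strand. The 250 bases before each start in RefSeq (GRCm38.p6) are shown because Lyz1 and Retnla are genes of the rule, with Lyz2 beside them as the copy outside it. They are chr16:48842359-48842608 (+), chr10:117292869-117293118 (-) and chr10:117282273-117282522 (-), each written 5′ to 3′ in the direction of its gene. The RefSeq start lies 58 bases inside the GENCODE gene for Retnla and 49 for Lyz2, and the 2 annotations share the start of Lyz1. Capitals mark matches to 4 motifs searched on both strands, a STAT6 motif (TTCNNNNGAA), a C/EBP motif (TTGCNNAA), a PU box (GAGGAA) and a TATA box (TATAAA).
Retnla: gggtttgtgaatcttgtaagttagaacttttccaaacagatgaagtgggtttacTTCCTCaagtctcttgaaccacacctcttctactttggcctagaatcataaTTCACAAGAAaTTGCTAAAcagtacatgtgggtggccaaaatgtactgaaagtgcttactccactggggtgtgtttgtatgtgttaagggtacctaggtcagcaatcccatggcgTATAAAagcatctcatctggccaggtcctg
Lyz1: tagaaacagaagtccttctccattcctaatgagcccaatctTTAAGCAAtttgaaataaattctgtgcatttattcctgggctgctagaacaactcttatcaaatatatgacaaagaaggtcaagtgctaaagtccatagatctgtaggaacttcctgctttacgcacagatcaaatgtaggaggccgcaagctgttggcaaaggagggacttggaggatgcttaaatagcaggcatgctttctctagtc
Lyz2: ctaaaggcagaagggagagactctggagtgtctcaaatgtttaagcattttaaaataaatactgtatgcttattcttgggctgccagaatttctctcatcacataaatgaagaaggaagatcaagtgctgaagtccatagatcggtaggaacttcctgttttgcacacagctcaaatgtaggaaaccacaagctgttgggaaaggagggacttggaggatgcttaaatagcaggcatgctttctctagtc
The Retnla window held all 4, with the STAT6 motif first met 145 bases and the C/EBP motif 134 bases before the start, the PU box on the minus strand at 196 and the TATA box at 30. The Lyz1 window held a C/EBP motif on the minus strand at 209 bases, and the Lyz2 window held none of the 4. Among 32851 windows of the same length, 5.85% held the STAT6 motif, 9.56% the C/EBP motif, 23.3% the PU box and 12.4% the TATA box. The windows of Lyz1 and Lyz2 were identical at 152 of 250 bases (60.8%) and at 92 of the 100 bases nearest the start. Matches in the letters are a description and not evidence of binding.

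In every library the Lyz1+Retnla+ cells stood far above the other Csf1r+Ptprc+ cells in Lyz1, a gap that the rule itself sets. These comparison cells, with at least 1 UMI each of Csf1r (the M-CSF receptor) and Ptprc, numbered 750, 346, 146 and 267. Lyz1 had 9908, 7717, 7209 and 4309 CPM in the Lyz1+Retnla+ cells and 449, 39.3, 29.7 and 95.4 CPM in the others. Each library thus had a gap of at least 22.1-fold, and its largest value, 243-fold, fell in the atherosclerotic Nrf2Cdh5Lox library, where 1 of the 8 cells held 55.3% of the Lyz1 UMIs. Lyz2, which was not in the rule, had 18431, 12837, 14549 and 13477 CPM against 12659.7, 8773, 8007 and 7753, a gap of 1.46 to 1.82-fold. Of the 410 stretches of 91 bases, the length of the sequenced read, in the last 500 bases of the Lyz1 transcript, 14 (3.41%) also occurred in Lyz2, so reads could be split between them only in a small part of that region.

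Across all 4 libraries Retnla differed more in fold than Lyz1 within the members. This order turned without the library labelled normocholesterolemic Nrf2Cdh5tKO, which held 6 members. Retnla had 26605, 5304, 33383 and 29455 CPM in the Lyz1+Retnla+ cells and 3148, 814, 1271 and 1861 CPM in the other cells. The library labelled normocholesterolemic Nrf2Cdh5tKO was the low one on both sides. Counted per cell and per 10000 UMIs, the median Retnla level was 187, 57.2, 344 and 216, and single cells of the normocholesterolemic Nrf2Cdh5Lox library ranged from 18.3 to 1145. Lyz1 had per-cell medians of 89.98, 63.6, 28.6 and 44.0 per 10000. Without the library labelled normocholesterolemic Nrf2Cdh5tKO the medians ran from 187 to 344 for Retnla and from 28.6 to 89.98 for Lyz1. Among the 107 Lyz1+Retnla+ cells of the normocholesterolemic Nrf2Cdh5Lox library, which share a library and were selected on minimum counts of these genes, Lyz1 and Retnla had a Spearman's rho of 0.04 and Lyz1 and Fn1 one of 0.40.

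**Figure D1:**
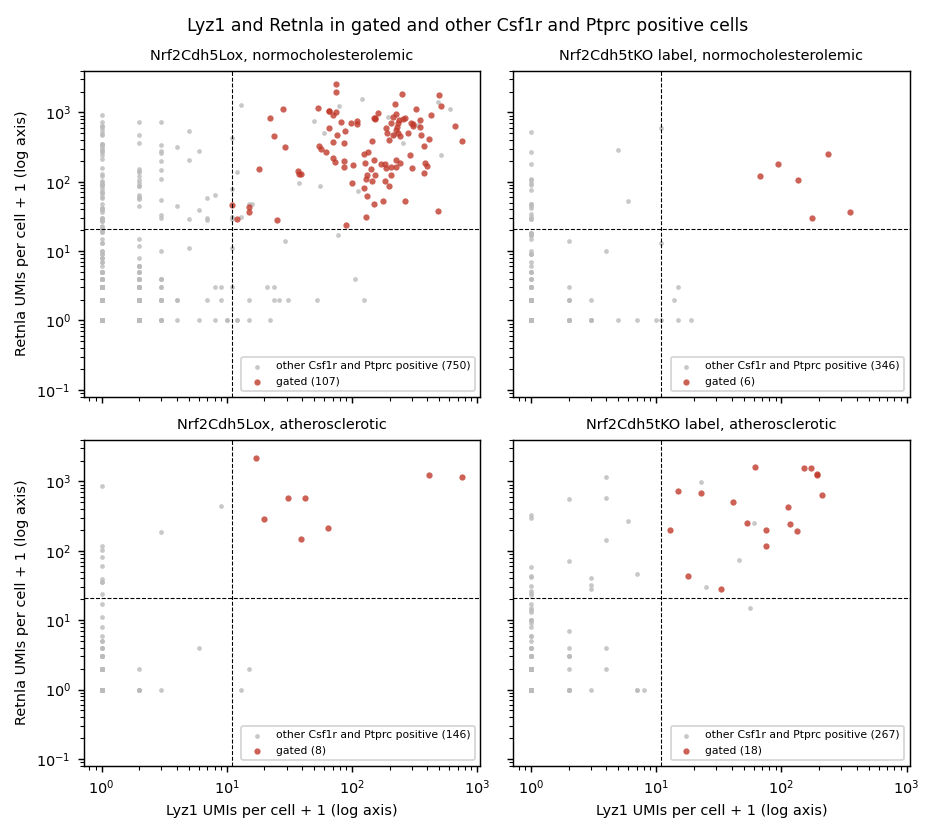
Retnla against Lyz1 UMIs of single cells in each library, both plus 1 on log axes, with dashed lines at 10 UMIs of Lyz1 and 20 of Retnla. Red points are the 139 Lyz1+Retnla+ cells and grey points the other Csf1r+Ptprc+ cells; grey points in the upper right corner failed another condition, and most red points lie well away from both lines.

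The lowest members had 10, 11, 12, 14 and 14 UMIs of Lyz1, and the nearest cells that missed only this condition had 9, 8, 7, 7 and 5. The lowest members in Retnla had 23, 27, 27, 28 and 29 UMIs and the nearest below had 17, 14, 13, 10 and 5. Cells that failed a single condition numbered 35 for Lyz1, 13 for Retnla, 16 for Pdgfra, 4 for Myh11, 2 each for Ptprc and Lyve1 and 0 for Fn1 and Ear2. Among Ptprc+ cells the pair of genes overlapped unequally. Of 206 cells with at least 10 Lyz1 UMIs, 84.5% also had at least 20 of Retnla, whereas 54.0% of the Retnla-rich cells were Lyz1-rich. In the library labelled normocholesterolemic Nrf2Cdh5tKO these shares were 46.7% and 28%.

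The Lyz1+Retnla+ cells came mainly from the normocholesterolemic Nrf2Cdh5Lox library. It held 107 of them, 1.36% (1.11 to 1.64) of its 7890 kept cells. The library labelled normocholesterolemic Nrf2Cdh5tKO held 6 of 2972, 0.202% (0.0741 to 0.439). The atherosclerotic Nrf2Cdh5Lox library held 8 of 1020, 0.784% (0.339 to 1.54), and the library labelled atherosclerotic Nrf2Cdh5tKO held 18 of 2266, 0.794% (0.471 to 1.25). The interval of the library labelled normocholesterolemic Nrf2Cdh5tKO overlapped that of the atherosclerotic Nrf2Cdh5Lox library and lay below the others. Of the Lyz1+Retnla+ and other Csf1r+Ptprc+ cells together, they made up 12.5%, 1.70%, 5.19% and 6.32%. Without the normocholesterolemic Nrf2Cdh5Lox library 32 cells remained. The order of that library above the one labelled normocholesterolemic Nrf2Cdh5tKO was found under every alternative gate in the plot of shares.

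**Figure D2:**
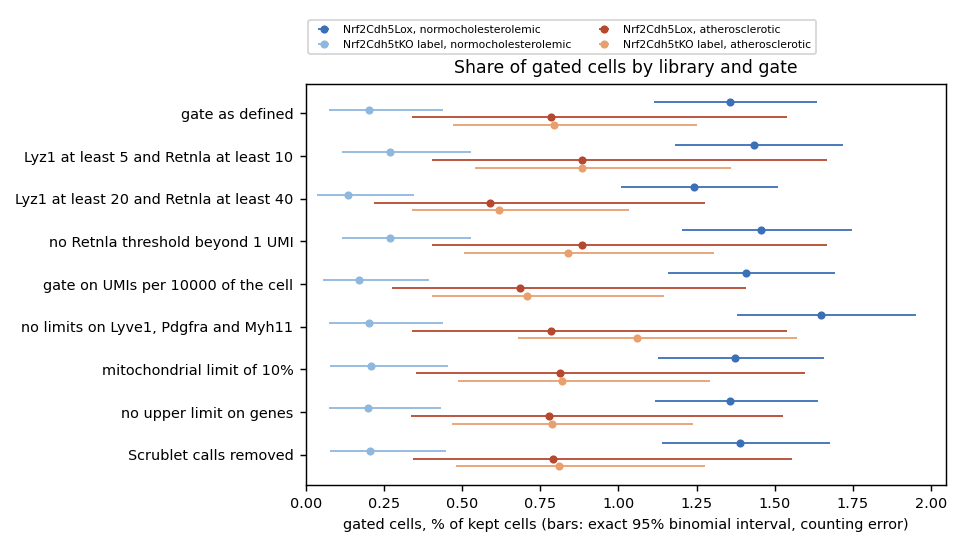
Share of Lyz1+Retnla+ cells among kept cells (x axis, percent, with exact 95% binomial intervals) in each library, for the gate as defined and 8 alternatives (y axis). Under the gate as defined the points sit at 1.36%, 0.202%, 0.784% and 0.794%.

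The members were deep cells, with 18852, 22344.5, 19537 and 21136 median UMIs against 10982.5, 8584, 10078 and 9091 in the other Csf1r+Ptprc+ cells. A threshold on raw UMIs favours deep cells. The least deep member had 1801 UMIs and the deepest 49946. Csf1r itself was found in 131 of the 139. The libraries shared 30 cell barcodes in all, none of them between members in 2 libraries, and 1 member's barcode was also a barcode of another library.

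Genes that separated the members in all 4 libraries were then read. A gene was counted when its CPM was at least 2-fold higher, or at least 2-fold lower, in each library alone, among 9298 genes with at least 10 UMIs per library in the 2 kinds of cell together. By this count 94 genes (1.01%) were higher and 333 (3.58%) lower in the Lyz1+Retnla+ cells, and since the cells were chosen within this very contrast nothing is read from these shares. With size factors taken as the median of ratios the counts were 125 and 247. The median log2 ratio over all 9298 genes was -0.30, -0.01, -0.12 and -0.18, so a typical gene lay slightly lower in the members. The shares of 1.01% higher and 3.58% lower are the background for the gene lists below.

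The other genes of the label followed Lyz1 and Retnla. Ear2, an eosinophil-associated ribonuclease of macrophages, had 1207, 880.3, 1496 and 859 CPM against 108, 64.2, 214 and 111. Of its 410 end stretches 35 (8.54%) also occurred in Ear10 and 9 (2.20%) in Ear1, so part of its count may belong to those copies. Fn1, the matrix protein fibronectin, had 2988, 3741, 3939 and 3165 CPM against 350.0, 230.4, 721 and 446. Both were part of the rule. Outside the rule, Lpl, the lipase that frees fatty acids from lipoproteins, had 1231, 1915, 759 and 672 CPM against 197, 100.5, 225 and 151. Dcstamp, which macrophages need for cell fusion, had 147, 249, 136 and 71.8 CPM against 18.7, 1.91, 5.45 and 13.2. All 6 genes were higher in the members in each library, though 1 cell held 88.5% of the Dcstamp UMIs of the atherosclerotic Nrf2Cdh5Lox library. Of 17 further genes of cell fusion and osteoclasts, Dcstamp not among them, 10 could be compared, none was higher in every library and Cd9 was lower. With a background of 1.01% higher and 3.58% lower, nothing is read from these counts.

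Genes of small cavity macrophages were partly higher. Of the 10 on the list, all compared, Cd226, Ccr2 and Clec4b1 were higher in every library, where the background is 1.01%. Cd226, an adhesion receptor, had 115, 169, 157 and 162 CPM against 18.1, 3.82, 13.3 and 16.4, and these ranges did not overlap. Ccr2, the receptor by which monocytes leave the blood, had 631, 1188, 1313 and 993 CPM against 150.4, 149, 534 and 214. Irf4, the transcription factor, had 40.1, 14.7, 41.9 and 46.2 CPM against 14.8, 8.74, 16.4 and 19.9. Irf4 thus missed the 2-fold line in the library labelled normocholesterolemic Nrf2Cdh5tKO, where it had 2 UMIs. Tnip3, an inhibitor of NF-kappaB signalling, missed it in the atherosclerotic Nrf2Cdh5Lox library at 283 against 149.6 CPM. Itgax, which encodes the integrin CD11c, went both ways, with log2 ratios of 1.37, 2.37, -0.67 and -1.15.

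Free RNA from other cells can place a UMI in a cell that does not make it. The shares of cells with a UMI were therefore set beside those of smooth muscle cells. These had at least 10 UMIs of Myh11 and none of Ptprc or Csf1r. The latter condition leaves out cells with stray UMIs of these leukocyte genes, so the smooth muscle shares can be too low. After each cell was thinned to 5000 UMIs, Cd226 was found in 46.2% of 132 members deep enough and in 0.164% of smooth muscle cells. The unthinned shares were 79.9% and 0.211%, at median depths of 19009 and 15893 UMIs. Ccr2 was found in 87.1% of thinned members and 0.273% of thinned smooth muscle cells (98.6% and 0.580% unthinned), and Irf4 in 22.0% and 0% (34.5% and 0.317% unthinned). Retnla, the most abundant of these transcripts, was found in 17.6% of thinned smooth muscle cells and Lyz1 in 3.88%.

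Genes of large cavity macrophages were near 0. Gata6 had 3, 0, 0 and 0 UMIs in the members, Timd4 had 2, 0, 1 and 0, and Vsig4 and Naip1 had none. Summed over the 14 genes of the list, the members had 54.8, 44.0, 15.7 and 35.9 CPM against 221, 185, 393 and 325 in the other Csf1r+Ptprc+ cells. Of 8 genes compared none was higher and Timd4 was lower in every library. The background is 1.01% higher and 3.58% lower, so nothing is read from these counts. The most abundant gene of the list was F5 in both normocholesterolemic libraries, Icam2 in the atherosclerotic Nrf2Cdh5Lox library and Selp in the library labelled atherosclerotic Nrf2Cdh5tKO. The label of cavity-like cells thus rests on part of the small cavity list, and the cells are named here by Lyz1 and Retnla alone.

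Outside the rule, 12 genes stood highest by their lowest ratio over the libraries, and 2 of them, Cd226 and Dcstamp, are given above. Cd2, an adhesion receptor best known from T cells and NK cells, had 234, 169, 219.7 and 256 CPM against 19.7, 12.8, 15.7 and 20.6, between 11.9-fold and 14.0-fold higher in every library. Aldh1a2, which makes retinoic acid, had 224, 220.1, 146 and 195 CPM against 17.6, 6.28, 13.9 and 20.6. Upb1, an enzyme of pyrimidine breakdown, had 119.7, 117, 88.9 and 64.1 CPM against 17.5, 6.28, 5.45 and 11.5. Ryr1, a calcium release channel best known from skeletal muscle, had 103, 103, 94.2 and 110.3 CPM against 15.8, 3.55, 12.1 and 6.62. Levels of Cd2 and Ryr1 differed little between libraries, whereas those of Upb1 spanned nearly 2-fold. The others were Slc9a4 (a sodium and proton exchanger), Hr, Tmem154, Ptger2 (a prostaglandin E2 receptor), Skint3 and Rras2 (a small GTPase), with log2 ratios between 2.17 and 6.43. Their counts were small in the libraries with few members, down to 2 UMIs of Ptger2 in the library labelled normocholesterolemic Nrf2Cdh5tKO.

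Cd2 and Cd226 are also T cell genes, so T cell markers were counted in the members. The 7 markers had 266, 0, 52 and 1 UMIs in all, of which 1 cell of the normocholesterolemic Nrf2Cdh5Lox library held 162, and Trbc2 was the most abundant. At least 5 such UMIs were found in 4 of the 139 cells. In the 102 members without any T cell UMI, Cd2 was found in 88 (86.3%) and Cd226 in 84 (82.4%), against 84.9% and 79.9% of all members. These shares are unthinned, and the source of the Cd2 and Cd226 UMIs was not tested.

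**Figure D3:**
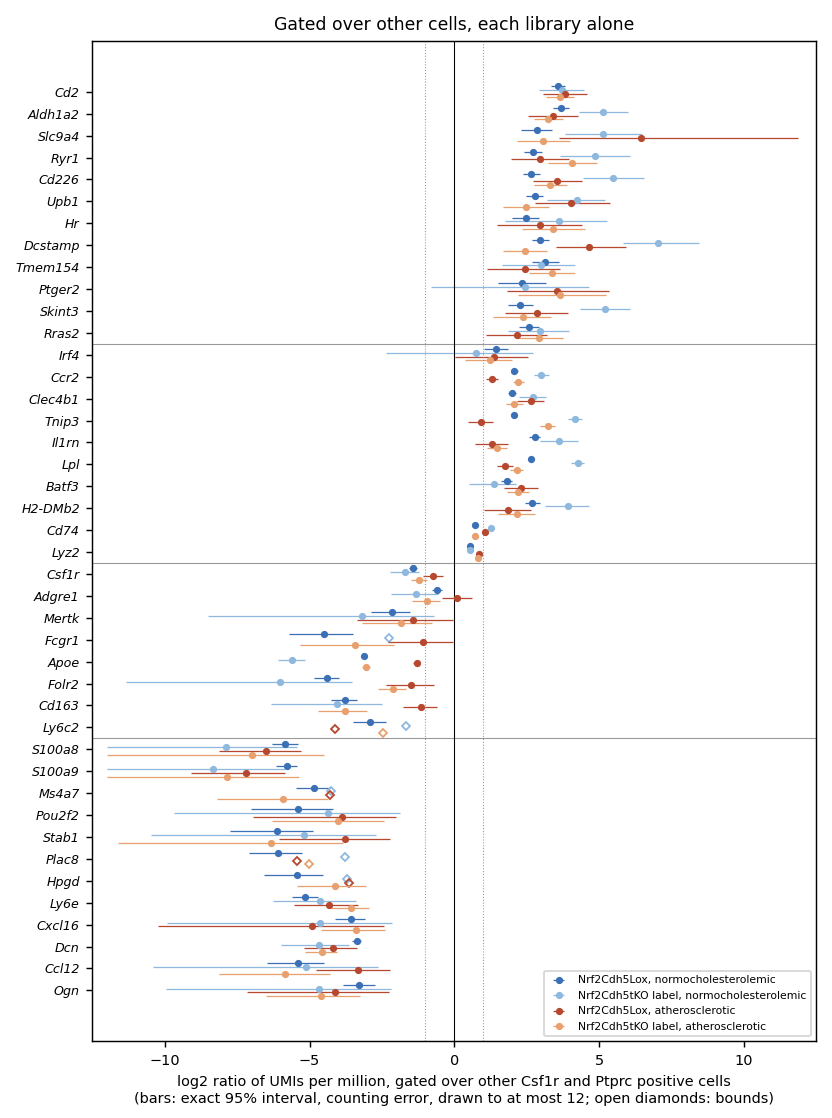
Log2 ratio of CPM in Lyz1+Retnla+ cells over other Csf1r+Ptprc+ cells (x axis) for named genes (rows), 1 point per library with its exact 95% interval; open diamonds are bounds where the members had 0 UMIs, and dotted lines mark 2-fold. All points of the upper block, such as Cd2 at 3.57 to 3.80, lie to the right of 1, and all points of the lowest block, such as S100a8 at -7.90 to -5.84, lie to the left of -1.

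Genes of antigen presentation on MHC class II were abundant in the members. The 11 genes of the list summed to 51355, 48487, 50695 and 42678 CPM against 29919, 19394, 22167 and 25340.3. Cd74, the invariant chain and most abundant of them, had 23570.5, 23319, 22559 and 22422 CPM against 14377, 9815, 10768 and 13568. Of 10 genes compared H2-DMa and H2-DMb2, subunits of the peptide exchange factor H2-DM, were higher in every library. H2-DMb2 had 151, 176, 105 and 89.8 CPM against 23.2, 11.7, 29.1 and 20.2. Among dendritic cell genes Batf3, a transcription factor, was higher (206, 110.0, 204 and 254 CPM against 58.6, 42.6, 41.2 and 55.4) and Irf8, another, was lower (11.7, 7.34, 31.4 and 7.69 against 68.2, 114, 122 and 104), with 8 of the 10 compared not counted either way. For both lists the background is 1.01% higher and 3.58% lower. Clec9a, of type 1 dendritic cells, was at 0. Cd209a, of type 2 dendritic cells, had 85, 0, 0 and 9 UMIs in the members. Over all members it had 35.0 CPM, against 1060.2 CPM in 44 of the other Csf1r+Ptprc+ cells. These 44 were chosen for at least 3 UMIs of Cd209a, at most 1 of Lyve1 and under 3 of Ly6c2. These Cd209a-rich cells came close to the members in H2-DMb2 (153 against 139.8 CPM) and Upb1 (97.1 against 109 CPM) and were lower in Lyz1 (13.3 against 8793 CPM) and Aldh1a2 (28.6 against 214 CPM).

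Among secreted factors, Ccl6 had 3680.1, 3154, 4661 and 4514 CPM against 1104, 551, 906 and 1344, and Ccl9 had 1879, 1482, 942 and 1077 against 606, 212, 334 and 294. Both are CC chemokines, and they were the only 2 of 16 chemokines compared that were higher in every library, while Ccl3, Ccl7, Ccl8, Ccl12 and Cxcl16 were lower. Il1rn, the natural antagonist of the interleukin-1 receptor, had 341, 213, 188 and 246 CPM against 50.2, 17.2, 76.9 and 89.2. Il1b itself, in contrast, went both ways (log2 ratios of 0.17, 2.25, -0.53 and -0.88), as did Cxcl2, a neutrophil-attracting chemokine (-0.47, 1.49, 0.21 and 0.54). Il1rn was the only one of 16 inflammatory cytokine genes counted higher. Cfp, the complement activator properdin, had 790.2, 535, 1182 and 887 CPM against 349.6, 236, 326 and 329.5. Mmp19, a metalloproteinase, had 153, 29.3, 251 and 144 CPM against 23.2, 8.19, 20.6 and 22.6, the only one of 22 matrix and integrin genes higher. For these lists the background is 1.01% higher and 3.58% lower.

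Retnla is used as a marker of alternative activation. Of the 12 genes of that list compared none was higher, which is near the background of 1.01%. Chil3 and Cd163 were lower, where the background is 3.58%, and Pdcd1lg2 was at 0. Of the 14 genes of the programme that GM-CSF drives in lung macrophages, 7 could be compared and none was higher, a count near the background of 1.01%. Car4, Plet1, Marco, Krt79 and Cidec were at 0. Csf2ra, a subunit of the GM-CSF receptor, had 502, 455, 398 and 428 CPM against 195, 165, 224 and 219.8. This was higher in each library but past 2-fold only in the normocholesterolemic ones.

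Csf1r and other genes shared by most tissue macrophages were read next. Csf1r had 239, 257, 413 and 292 CPM against 641, 838, 687 and 674, and since only the other cells had been chosen for a Csf1r UMI, nothing is read from this. Of 14 core macrophage genes, Fcgr1 (the high-affinity IgG receptor) and Mertk (a receptor for dying cells) were lower in every library. The background for lower genes is 3.58%. Mertk had 10.7, 7.34, 20.9 and 17.95 CPM against 47.6, 67.2, 56.9 and 64.4. Adgre1, which encodes F4/80, had 143, 103, 188 and 103 CPM against 215, 257, 175 and 198, and so lay higher in 1 library and lower in 3.

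Of 17 genes of Lyve1+ resident macrophages, 8 were lower in every library and none was higher, where the background is 3.58% lower and 1.01% higher. The 8 were Folr2, Timd4, Cd163, Cd209f, Gas6, Cbr2, Ccl8 and Stab1. The rule capped Lyve1 in the members but not in the other cells, of which 648 of 1509 had at least 3 UMIs of Lyve1. The rule itself can therefore lower genes that go with Lyve1 in the members, and nothing is read from this count. The summed list differed by log2 ratios of -1.87, -3.11, -0.04 (-0.11 to 0.02) and -1.11, so its sum lay at the level of the other cells in the atherosclerotic Nrf2Cdh5Lox library. Stab1, a scavenger receptor, had 2.54, 7.34, 15.7 and 2.56 CPM against 177, 267, 217 and 206. Apoe, the lipoprotein that macrophages secrete, had 1259, 293, 3280.3 and 1090.0 CPM against 10846, 14347, 8085 and 9131. Folr2, a folate receptor, had 24.3, 7.34, 73.2 and 97.5 CPM against 511, 479, 205 and 427. The gap in Apoe and Folr2 was smallest in the atherosclerotic Nrf2Cdh5Lox library.

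Of 13 classical monocyte genes 7 were lower (Ly6c2, Plac8, Chil3, Hp, Vcan, Ms4a4c and Gsr) and only Ccr2 was higher, where the background is 3.58% lower and 1.01% higher. Ly6c2, the surface marker of these monocytes, had 29, 0, 0 and 0 UMIs in the members, and Plac8 had 11, 0, 0 and 0. S100a8 and S100a9, the calprotectin subunits of neutrophils and monocytes, had 22.8, 7.34, 26.2 and 2.56 CPM and 33.0, 7.34, 20.9 and 2.56 CPM in the members. In the other cells they stood at 323 to 3085 CPM, so they were among the 12 lowest genes, with Ms4a7, Pou2f2, Stab1, Plac8, Hpgd, Ly6e, Cxcl16, Dcn, Ccl12 and Ogn. Ms4a7 had 26, 0, 0 and 3 UMIs in the members and was at least 19.2-fold lower in the library labelled normocholesterolemic Nrf2Cdh5tKO. The level of Lyz2 in the 98 cells chosen for at least 3 UMIs of Ly6c2 and at most 1 of Lyve1 was 22552 CPM. This was above the 17153 CPM of all members, while Lyz1 stood at 47.1 CPM in the 98 cells.

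All 7 fibroblast genes were lower in every library, with sums of 856, 462, 272 and 318 CPM against 5586, 5220.0, 2894 and 4659.8, Gsn being the most abundant. Smooth muscle genes summed to 358, 139, 94.2 and 215 CPM against 2109, 2035, 202 and 1412, led by Acta2. Of the mesothelial markers Msln, Upk1b, Lrrn4 and Krt8 were at 0 and the 7 genes had 5, 0, 0 and 0 UMIs, led by Wt1. The 7 eosinophil and mast cell genes had 20, 0, 0 and 1 UMIs in the members, with Epx, Prg2, Ccr3 and Cpa3 at 0. In the normocholesterolemic Nrf2Cdh5Lox library these genes stood higher in the members than in the other cells, at 10.1 against 4.56 CPM (log2 ratio of 1.15, 0.31 to 1.95), led by Siglecf with 15 UMIs, and their part in the results was not tested. The neutrophil markers had 133, 2, 12 and 2 UMIs. Pdgfra and Myh11 limits of the rule hold down fibroblast and smooth muscle counts by construction.

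Some members held transcripts of dividing cells. At least 5 UMIs of 12 proliferation genes were found in 10 of 139 members (7.19%) and in 123 of 1509 other Csf1r+Ptprc+ cells (8.15%), and 9 of the 10 came from the normocholesterolemic Nrf2Cdh5Lox library. Of these 10 cells 2 also held at least 5 T cell UMIs, 27 beside 51 of proliferation genes and 162 beside 105. The doublet caller Scrublet called neither of them, and no other check for doublets was made. Summed over the 12 genes, the members had 370.2, 22.0, 31.4 and 113 CPM against 550.1, 1074, 654 and 603 in the other cells, lower in every library and most so where members were few, while no single gene was past 2-fold in all 4. Of 15 compared genes of Nrf2 and its targets, none was higher and 1, Gsr (glutathione reductase), was lower, which is near the background of 1.01% higher and 3.58% lower.

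The members differed among themselves in complement C1q. C1qa, C1qb and C1qc encode the 3 chains of the molecule that starts the classical complement pathway, and resident macrophages make it in large amounts. Summed and scaled to 10000 UMIs of the cell, they left a gap between 8.28 and 11.0 among the members, and a line was drawn at 10 after these values were seen. At or above it lay 44 of 107, 2 of 6, 7 of 8 and 9 of 18 members, 62 of 139 in all (44.6%, 36.2 to 53.3). Median C1q was 75.5 per 10000 above the line and 0.850 below it, and 10 cells lay between 5 and 20. Of the other Csf1r+Ptprc+ cells 73.5%, 81.2%, 54.1% and 80.5% lay above the line. Of cells with UMIs of Ptprc and of Cd3e, a T cell gene, but none of Csf1r or Myh11, 1.52% did. Leaving out cells with Csf1r can make this share too low. C1q-high and C1q-low members had similar depth, with 18335.5 and 19766 median UMIs.

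**Figure D4:**
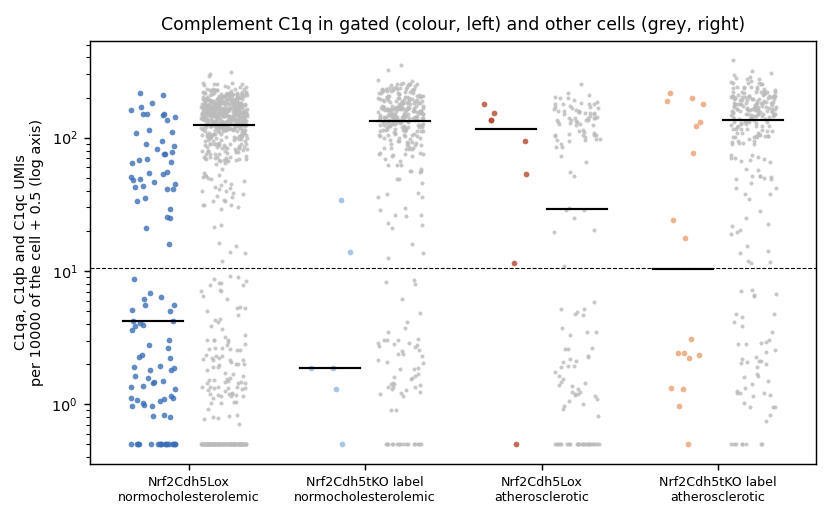
Summed C1qa, C1qb and C1qc UMIs per 10000 UMIs of the cell plus 0.5 (log axis) in single cells of the 4 libraries, with Lyz1+Retnla+ cells in colour at left and other Csf1r+Ptprc+ cells in grey at right of each pair. Black bars are medians and the dashed line is at 10; the members fall into cells above and below the line, 44 and 63 of them in the normocholesterolemic Nrf2Cdh5Lox library.

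Genes that went with C1q were counted in the normocholesterolemic Nrf2Cdh5Lox library and the library labelled atherosclerotic Nrf2Cdh5tKO, which held at least 9 cells on each side. Of 2689 genes, 51 (1.90%) were at least 2-fold higher in C1q-high members in both and 17 (0.632%) lower, a description of the same cells on which the line was set. Pf4, a platelet chemokine that resident macrophages also express, had 732 against 18.01 CPM in the first library and 801 against 27.9 in the second. Folr2 had 60.0 against 2.46 CPM and 175 against 5.59, and Apoe had 3016 against 180.1 CPM and 1758 against 302. C3ar1 and C5ar1, the receptors for the complement fragments C3a and C5a, were higher too, C3ar1 with 123 against 10 UMIs and 47 against 0. Maf, a transcription factor of resident macrophages, had log2 ratios of 2.16 and 1.56. Of 7 compared genes of the Lyve1+ resident list, the C1q genes left out because they set the line, 4 were higher (Folr2, Maf, Pf4 and Selenop).

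The likeness to resident macrophages was partial. Lyve1 was capped by the rule, and Stab1 (5 and 0 UMIs in C1q-high members) and Timd4 (2 and 0) were near 0 without a limit of their own. The cap on Lyve1 can also lower genes that go with it. Cd163 had 17.3 against 25.4 CPM and 23.7 against 44.7. Lyz1 hardly differed across the line, with 9826 against 9958 CPM and 4749 against 3789. Ccr2 had 685 against 599 CPM and 1099.6 against 866, so the level was similar on both sides. Retnla was higher with C1q in the normocholesterolemic Nrf2Cdh5Lox library, 42899.5 against 16592 CPM, and less so in the library labelled atherosclerotic Nrf2Cdh5tKO, 33325 against 24891. Across the 107 members of the former, C1q and Retnla had a Spearman's rho of 0.62, against 0.20 across the 18 of the latter.

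Another group of genes was higher in the C1q-low members. Cd24a, a surface glycoprotein, had 163 against 1.33 CPM in the first library and 279 against 23.7 in the second, here C1q-low first. Upb1 had 179 against 24.0 and 117 against 19.0, and Dcstamp 199 against 61.3 and 134 against 19.0. H2-DMb2, Napsa (an aspartic protease), Spink2 (a protease inhibitor), Areg (the growth factor amphiregulin) and Stap1 were higher in C1q-low members as well. Some genes that set all members apart thus lay mainly in the C1q-low ones, while Cd226 had 122 against 103 and 235 against 99.5 CPM and Lpl 1358 against 1025 and 866 against 507, short of 2-fold in at least 1 library.

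**Figure D5:**
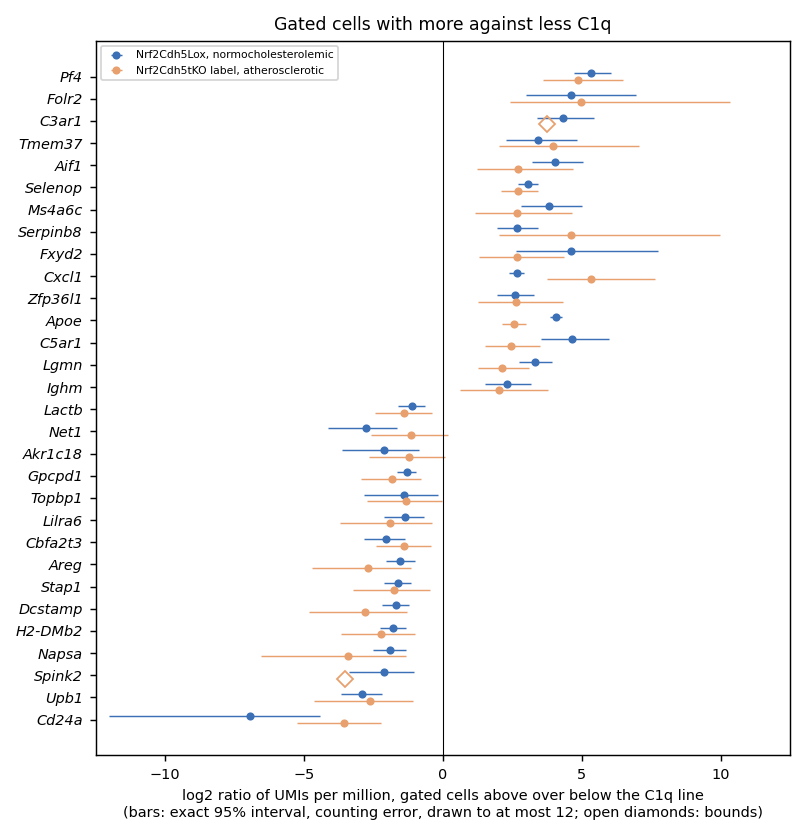
Log2 ratio of CPM in C1q-high over C1q-low Lyz1+Retnla+ cells (x axis) for the 15 genes highest and the 15 lowest in both libraries shown, with C1qa, C1qb and C1qc left out because they set the line, with exact 95% intervals; open diamonds are bounds where 1 side had 0 UMIs. Pf4 is drawn first at 5.34 and 4.84, and Cd24a lies lowest at -6.93 and -3.56.

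The genotype labels were compared within each condition, normocholesterolemic and atherosclerotic. Of 3602 genes with at least 20 UMIs per pair of libraries, 31 (0.861%) were at least 2-fold higher in the Lyz1+Retnla+ cells of the library labelled Nrf2Cdh5tKO in both conditions, and 31 (0.861%) were lower. The comparison rests on 6 against 107 and on 18 against 8 cells. Genes of inflammation were among those higher. Of 11 inflammatory cytokine genes compared, 5 were higher in both conditions, Tnf, Il6, Nlrp3, Ptgs2 and Tnip3, and none was lower. Without the cell richest in each gene only Il6 of the 5 stayed past 2-fold, so the other 4 calls rest on few cells or few UMIs. The whole list differed by a log2 ratio of 1.19 (normocholesterolemic) and 0.21 (atherosclerotic) in the members and by -0.04 and 0.00 in the other Csf1r+Ptprc+ cells. Tnf, the tumour necrosis factor, had 359 against 41.1 CPM and 84.6 against 5.23, and Il6 had 638 against 62.4 and 103 against 47.1. Cxcl10, an interferon-induced chemokine, had 660.2 against 47.7 CPM and 149 against 5.23, with 65.6% of its UMIs in 1 of the 6 normocholesterolemic cells. For Tnf and for Cxcl10 the 5.23 CPM of the atherosclerotic Nrf2Cdh5Lox library is 1 UMI. Cxcl10 was also higher in the other Csf1r+Ptprc+ cells (log2 ratios of 1.26 and 3.89), whereas Tnf was less so (0.10 and 0.32). Id3, Nup54, Zfp710, Rnf6 and Egr1, an immediate early gene, completed the 8 highest.

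Lower with the Nrf2Cdh5tKO label in both conditions were Apoe, 293 against 1259 CPM and 1090.0 against 3280.3, and Tmem176a, 125 against 410.3 and 226 against 581. Apoe differed little in the other Csf1r+Ptprc+ cells (0.40 and 0.18 on the log2 scale). Apoe was also a gene of the C1q-high members, described above, whose share was lower with this label in both conditions (2 of 6 against 44 of 107, and 9 of 18 against 7 of 8). The intervals of these shares overlapped, at 4.33 to 77.7% against 31.7 to 51.0% and 26.0 to 74.0% against 47.3 to 99.7%. Within the C1q-high members Apoe had 630.3 against 3016 CPM and 1758 against 4183, on 2 against 44 and 9 against 7 cells. Igf1, a growth factor of resident macrophages, had 7.34 against 23.8 CPM and 25.6 against 214, but only 1 UMI in the normocholesterolemic library labelled Nrf2Cdh5tKO. Vps37b, Pan3, Rasgrp1, Gpr146 and Asxl2 completed the 8 lowest. No gene among the 9 compared of Nrf2 and its targets was past 2-fold in both conditions. This is near the share over all genes, 0.861% in each direction. When the cell richest in each gene was left out of every library, 7 of the 31 higher genes stayed past 2-fold. Among them were Cxcl10, Id3 and Il6, but not Tnf. Of the 31 lower genes 13 stayed past 2-fold, among them Apoe, Pan3, Tmem176a and Vps37b, but not Igf1. A sum that became 0 was set to the floor of 3 counts. A call could thus be lost where the lower side held few UMIs, as with the 1 UMI of Igf1. Lost calls rest on few cells or few UMIs, and which of these applies was not told apart.

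The atherosclerotic and normocholesterolemic libraries were compared within each genotype label, with the same 4 libraries. Of 3389 genes, 40 (1.18%) were at least 2-fold higher in the members of the atherosclerotic library in both pairs and 32 (0.944%) lower. Some genes of resident macrophages were among them. Of 10 genes compared of the Lyve1+ resident list, 6 were higher in both pairs (Folr2, Maf, Pf4, C1qa, C1qc and Selenop). Only Maf and Pf4 of these 6 stayed past 2-fold without the cell richest in each gene. The list differed by a log2 ratio of 1.11 (Nrf2Cdh5Lox) and 2.03 (Nrf2Cdh5tKO label) in the members but by -0.72 and 0.03 in the other Csf1r+Ptprc+ cells. Maf had 324 against 58.8 CPM and 310.3 against 58.7, and was found in 8 of 8 and 13 of 18 atherosclerotic members against 42 of 107 and 3 of 6 normocholesterolemic ones. These shares are unthinned and have no background share beside them, so nothing is read from them. Pf4 had 957 against 289.6 CPM and 446 against 29.3. Among complement genes C1qa, C1qc, C3ar1 and C5ar1 were higher in both pairs, of which C3ar1 alone stayed past 2-fold without its richest cell. These are genes of the C1q-high members, which made up 7 of 8 and 9 of 18 atherosclerotic members and 44 of 107 and 2 of 6 normocholesterolemic ones. Within the C1q-high members alone Maf had 408 against 113 CPM and 446 against 61.0, and Pf4 had 1209.6 against 732 CPM and 801 against 61.0, where the last value of each gene rests on 3 UMIs among 2 cells. Psd3, Rnf150, Prorsd1 and Dse completed the 8 highest.

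Lower in the atherosclerotic libraries were Vegfa, an angiogenic growth factor, with 5.23 against 48.2 CPM and 5.13 against 213, and Slc7a11, the cystine transporter and an Nrf2 target, with 10.5 against 168 and 20.5 against 95.4. Vegfa differed the other way in the other Csf1r+Ptprc+ cells (log2 ratios of 2.07 and 1.22). Tnf had 5.23 against 41.1 CPM and 84.6 against 359, and Cxcl10 5.23 against 47.7 and 149 against 660.2. Each value of 5.23 CPM, that of Vegfa included, is 1 UMI in the atherosclerotic Nrf2Cdh5Lox library. Ptgs2, which encodes cyclooxygenase 2, had 0 against 93 UMIs and 22 against 25. Mxd1, Pqlc1 and Atf2 completed the 8 lowest. Without the cell richest in each gene, 9 of the 40 higher genes (among them Maf, Pf4, C3ar1 and Dse) and 13 of the 32 lower ones (among them Vegfa, Cxcl10, Pqlc1 and Atf2, but not Slc7a11, Tnf or Ptgs2) stayed past 2-fold. Of Lyz1, Retnla, Fn1, Ear2, Lpl and Dcstamp none was past 2-fold in the same direction in both pairs of either comparison, although some had values on the same side in both pairs. With the Nrf2Cdh5tKO label Lyz1, Retnla and Ear2 were the lower ones, and in the atherosclerotic libraries Lyz1, Lpl and Dcstamp were lower and Retnla was higher. Retnla differed past 2-fold in the normocholesterolemic genotype pair (log2 ratio of -2.33) and in the atherosclerosis pair of the Nrf2Cdh5tKO label (2.47), both of which hold the 6 members of the library labelled normocholesterolemic Nrf2Cdh5tKO.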

How the data were processed

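Single-cell RNA sequencing of 4 pooled aortic arch libraries was analysed. The values the authors deposited are raw UMI counts, with no scaling, for each gene of each barcode. The authors used 10x 3′ v3.1 chemistry and Cell Ranger 6.1.2 with mm10 (submitters' processing notes). Barcodes with under 200 or over 6000 genes, or over 15% of UMIs from mitochondrial genes, were removed here as in the study, which kept 14148 of 15599 barcodes in all. Doublets were otherwise left in, since this upper limit is the study's step against them, and Scrublet (scanpy 1.11.5) called 0 members.

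The members and gene lists were chosen with earlier results of these data known. UMIs were summed over cells per library and scaled to 1000000. Log2 ratios had exact binomial intervals, CPM exact Poisson and shares Clopper-Pearson intervals. Where a sum was 0, a bound was computed from a floor of 3 counts. The median-of-ratios scaling, other gates, filters, folds and libraries left out were alternatives. Some genes and a part of the atherogenic treatment are not reported here. No test was made, since each group had 1 library. The calling steps were checked on simulated counts.

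Named genes were those of the lists described, the 12 highest and 12 lowest by their weakest ratio over the 4 libraries and up to 8 per direction in each pair of comparisons, without mitochondrial, ribosomal and unnamed genes. The C1q line and the genes beside it were chosen after their values were seen. Shares were thinned to 5000 UMIs per cell, which left out 7 members. Sequences came from RefSeq (GRCm38.p6) and gene positions from GENCODE M21 on GRCm38. The software was Python 3.11.15 with scipy 1.17.1, numpy 2.4.6, matplotlib 3.10.9 and pandas 2.3.3.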

Additional observations from a re-analysis of the deposited data

Results flagged for a closer look

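The interferon response list (16 genes, such as Isg15, Rsad2 and Cxcl10) went opposite ways between the atherosclerotic and normocholesterolemic libraries in the Lyz1+Retnla+ cells of the 2 genotype labels. Its summed CPM differed by a log2 ratio of 1.39 (1.03 to 1.74) in the Nrf2Cdh5Lox pair and by -1.99 (-2.30 to -1.68) in the pair labelled Nrf2Cdh5tKO, atherosclerotic over normocholesterolemic. In the other Csf1r+Ptprc+ cells the same ratios were both 0.23. The difference between the pairs was not tested, as each is 1 library against 1 library. A single cell held 62.8% of the list's UMIs in the atherosclerotic Nrf2Cdh5Lox library and 50.7% in the library labelled normocholesterolemic Nrf2Cdh5tKO.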

How the results depend on the processing

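Of 124 values recomputed under an alternative, 97 moved by less than the limit set for them (1.5-fold for a count of genes, the counting interval for a share) and 27 moved more. The share of Lyz1+Retnla+ cells in the normocholesterolemic Nrf2Cdh5Lox library was 1.65% without the limits on Lyve1, Pdgfra and Myh11. The number of members ranged from 32 to 133 when each library was left out, an alternative chosen after seeing the data, 32 being without the normocholesterolemic Nrf2Cdh5Lox library. Genes higher in the members in every library were 197 at a fold of 1.5 and 110 to 163 with 1 library left out, the highest without the atherosclerotic Nrf2Cdh5Lox library. Genes lower were 193 without the 3 limits, 749 from the mean over cells and 651 at a fold of 1.5. They ranged from 396 to 509 with 1 library left out, with 501 without the library labelled normocholesterolemic Nrf2Cdh5tKO and 509 without the atherosclerotic Nrf2Cdh5Lox library, since fewer libraries have to pass. With the genotype label, genes higher and lower were 7 and 7 at 50 UMIs per pair, 144 and 98 at 1 UMI, 168 and 129 at a fold of 1.5, and 7 and 13 without the richest cell. Those lower were 20 with Lyz1 and Retnla thresholds halved and 53 from the mean over cells. Between the atherosclerotic and normocholesterolemic libraries they were 17 and 13 at 50 UMIs, 155 and 116 at 1 UMI, 175 and 132 at a fold of 1.5, and 9 and 13 without the richest cell, which was also chosen after seeing the data. Similar counts could hold different genes. With the gate on UMIs per 10000, 17 of the 31 higher and 13 of the 31 lower genotype genes were shared with those reported, and 19 of the 40 higher and 15 of the 32 lower genes of the atherosclerosis comparison. Pairs of libraries were compared as descriptions, and no paired test was made because each group is 1 library. Depth limits the genotype and atherosclerosis comparisons, in which libraries held 6 and 8 members.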
